A study of Mus musculus with 18 samples.

Results

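The left ventricle (LV) of mouse hearts stored cold for 8 h was compared with that of hearts that had no storage, in 6 of the 18 libraries of the series, 3 for each condition. The libraries were chosen by their labels, and all genes were followed. Every heart came from a mouse whose strain is labelled C57B/L6 (the methods write C57BL/6J), labelled as 12 weeks old (the methods give a younger age and a smaller volume of HTK), and had received an infusion of HTK, a histidine-tryptophan-ketoglutarate preservation solution. The 8 h hearts were then kept in ice-cold HTK and the 0 h hearts were not. Both groups were afterwards perfused for 1 h outside the body with Krebs buffer, so that the 0 h group is a control for storage and not a heart left in the animal. The perfusate was a buffer without blood. The labels give no sex, and the methods state that animals of both sexes were used.

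RNA came from the ventricle as a whole, so that fewer cells of a type and less RNA per cell cannot be told apart. The 6 libraries held 22552581 to 46236771 estimated counts. Levels are given as CPM, counts scaled to a common library size adjusted by the trimmed mean of M values (TMM). Genes of the mitochondrial genome took 24.1%, 25.97%, and 28.3% of the counts at 0 h and 32.0%, 34.4%, and 33.4% after 8 h. Replicate 3 after 8 h stood apart. On the first principal component of the 9 LV libraries, which held 60.3% of the variance of the genes used, it lay at 53.1, against 9.98 and 7.86 for the other 8 h libraries and -33.4 to -31.4 at 0 h. Among the LV libraries after 4 h of storage, replicate 3 also stood apart, at 34.7 against -2.94 and -4.86. The Y-linked gene Ddx3y was at 88.1, 1.71, and 69.3 CPM at 0 h and at 68.2, 78.6, and 2.48 CPM after 8 h, so that replicate 2 at 0 h and replicate 3 after 8 h differed from the other 4 libraries. After 4 h the sum of 4 Y-linked genes was 175, 172, and 4.69 CPM. The labels do not say whether libraries of a group are separate hearts, and the p-values measure the spread between these libraries. For the gene lists, edgeR counts that moved by more than 1.5 times when 1 library was left out are given beside the count, or as a range over those fits.

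The cardiac markers Myh6, Tnnt2, Actc1, Myl2, and Tnni3 were present in all 6 libraries, with Myl2, the ventricular regulatory light chain, at 4307 to 5030 CPM at 0 h and 4301 to 5592 CPM after 8 h. The atrial transcript Sln was at 1.19 to 10.8 CPM and then 3.87 to 17.4 CPM, and Myl7, the atrial light chain, at 4.06 to 25.2 CPM and then 14.5 to 39.5 CPM.

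When cells sense foreign or misplaced nucleic acids, or bacterial and damage signals, they turn on overlapping gene programs. Interferons bind their receptors and activate transcription factors, among them those of the IRF family, which act on the interferon-stimulated response element (ISRE) of antiviral genes. Toll-like receptors and the TNF and IL-1 receptors activate NF-kB, which drives chemokines, cytokines, and endothelial adhesion molecules. In heart muscle the circadian clock also sets a daily rhythm, in which the activator BMAL1 (encoded by Arntl) drives its own repressors and the PAR bZIP factors that bind the D-box.

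Promoter sequences of 6 genes among the changes described below are shown because they hold the letters that such factors are known to bind. They were taken from RefSeq on build GRCm38.p6, are written 5′ to 3′ on the strand of the gene, lie within the 250 bases before its start, and show the motif in capitals. The first 3 and the first line for Cxcl10 hold the ISRE letters, GAAA repeated after 2 bases of any kind, and the lines for Il6 and the second for Cxcl10 hold GGGA and CC with 4 bases of any kind between them, a form of the NF-kB site. The line for Per3 holds TTATGNAA, a form of the D-box. All motifs were searched on both strands.
Ifit1, chr19:34640779-34640838, plus strand: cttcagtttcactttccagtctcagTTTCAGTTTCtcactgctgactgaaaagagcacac
Isg15, chr4:156200850-156200909, minus strand: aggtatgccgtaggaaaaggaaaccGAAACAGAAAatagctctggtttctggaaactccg
Gbp5, chr3:142496744-142496803, plus strand: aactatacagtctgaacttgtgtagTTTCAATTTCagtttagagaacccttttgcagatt
Cxcl10, chr5:92349068-92349127, minus strand: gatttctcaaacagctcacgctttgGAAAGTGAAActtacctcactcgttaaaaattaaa
Cxcl10, chr5:92348958-92349017, minus strand: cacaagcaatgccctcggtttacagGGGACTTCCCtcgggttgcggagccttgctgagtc
Il6, chr5:30013046-30013105, plus strand: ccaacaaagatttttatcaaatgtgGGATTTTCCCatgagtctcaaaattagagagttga
Per3, chr4:151044789-151044848, minus strand: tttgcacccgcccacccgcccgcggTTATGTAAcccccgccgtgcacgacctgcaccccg

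The ISRE letters stood in the 250 bases before the start of 370 of the 10882 protein-coding genes that were tested and had an entry, or 3.4%. They stood before 41 of 508 genes called higher after 8 h (8.07%) and before 3 of 133 called lower (2.26%). Among the guanylate-binding proteins and immunity-related GTPases the count was 9 of 10 genes, and among the interferon-induced antiviral effectors it was 13 of 29. The NF-kB letters are short and were found before 26.1% of all these genes, 30.5% of those called higher, and 30.1% of those called lower. Among the NF-kB subunits and feedback genes they stood before 11 of 19. The D-box letters stood before 2.44% of all these genes, 2.76% of those called higher, 2.26% of those called lower, and 2 of 18 clock genes. The letters CACGTG, a form of the E-box, were searched as well. They stood before 9.51% of all these genes, 7.48% of those called higher, 12.8% of those called lower, and 5 of 18 clock genes. These shares describe letters in a window and do not show binding.

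After 8 h of storage with reperfusion, the calls included chemokine, NF-kB, and matrix genes that were higher in LV and clock genes that were mostly lower. Expression was compared with the quasi-likelihood test of edgeR, and calls required an adjusted p (Benjamini-Hochberg) below 0.1 together with more than a 1.5-fold change. Of 14564 genes tested, 701 were called higher (4.81%) and 180 lower (1.24%), which is 6.05% in either direction. The median fold was 2.82 for the higher genes and 1.68 for the lower genes, and 223 of the higher genes changed over 4-fold, against 6 of the lower genes. All 3 libraries after 8 h lay above all 3 at 0 h in 2281 genes (15.7%) and below them in 1892 (13%), which is the background for counts of groups without overlap. The median log2 fold change over all genes was -0.02, and 3360 of the 14564 had an unadjusted p under 0.05 in edgeR.

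The number of calls depended on single libraries. It was 303 higher and 71 lower without replicate 3 after 8 h, 115 and 12 without replicate 2 at 0 h, 217 and 43 without replicate 3 at 0 h, and 1292 and 504 without replicate 2 after 8 h. Without replicate 1 after 8 h it was 484 and 73, and without replicate 1 after 4 h, which entered only the estimate of the spread, 563 and 119. In every one of the 9 fits that left out 1 LV library, 105 genes were called higher and 10 lower, and of the genes named below these were Arntl, Ccl8, Ccl9, Cd14, Cebpd, Ch25h, Col4a1, Csf3, Csf3r, Has1, Hlf, Il1rn, Il6, Inhbb, Kcna5, Lcp1, Lmod2, Lrrc25, Meox2, Mmp14, Per3, Plat, Ptprc, S100a8, Sh3pxd2b, Sox4, Tef, Timp1, Tmem173, and Tnip3. Of 159 genes examined by name and called with all libraries, 105 lost the call without replicate 2 at 0 h, 86 without replicate 3 at 0 h, 56 without replicate 1 at 0 h, 47 without replicate 1 after 8 h, 7 without replicate 2 after 8 h, and 73 without replicate 3 after 8 h. The genes named below that lost it without replicate 3 after 8 h were Adamts4, Adm, B2m, C3, Cacna1c, Cxcl10, Cxcl9, Dusp2, Egr3, Gbp5, H2-K1, H2-Q4, Hadha, Hey1, Hey2, Hmox1, Hsp90aa1, Hsph1, Ifit1, Irgm1, Isg15, Lif, Ly6c2, mt-Co3, Myd88, Myh6, Myom2, Ndufs1, Oasl1, Rpl38, Rpl41, Sele, Socs1, Tbx20, and Vcam1.

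**Figure D1:**
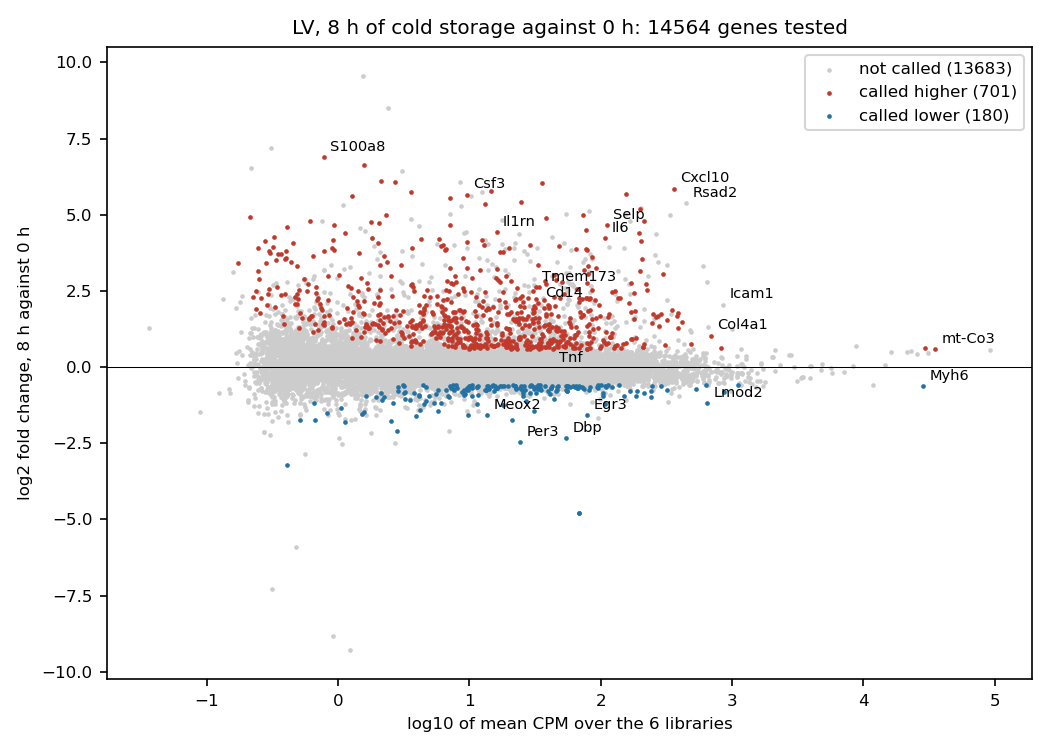
Log2 fold change of each of the 14564 tested genes, 8 h against 0 h in LV, against the log10 of its mean CPM over the 6 libraries. Red points are the 701 genes called higher and blue points the 180 called lower.

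**Figure D2:**
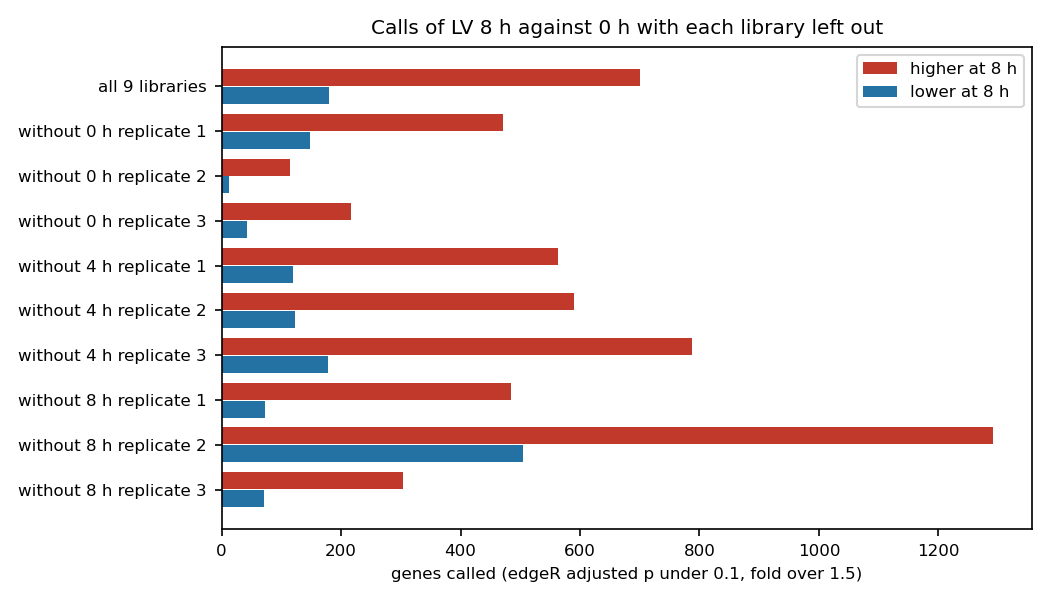
Number of genes called higher (red bars) and lower (blue bars) after 8 h with all 9 LV libraries and with each library left out in turn. The higher genes range from 115 without replicate 2 at 0 h to 1292 without replicate 2 after 8 h.

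Interferon-induced antiviral effectors were raised in every 8 h library, and most in replicate 3. Of 38 members, 36 were higher without overlap and 8 were called, with a median log2 fold change of 3.66. Ifit1, whose protein binds viral RNA, was at 7.8, 11.6, and 12.4 CPM at 0 h and at 125, 202, and 829 CPM after 8 h. The difference was 5.18 on the log2 scale with a standard error of 1.15 (edgeR adjusted p = 0.0601). Isg15, a ubiquitin-like modifier, was at 6.97, 5.83, and 6.64 CPM at 0 h and at 55.9, 62.3, and 324 CPM after 8 h (log2 fold change 4.50, standard error 1.04, edgeR adjusted p = 0.0676). In both genes the groups did not overlap, and replicate 3 after 8 h was far above replicates 1 and 2. Oasl1, an oligoadenylate synthetase-like protein, was at 3.99 to 5.03 CPM at 0 h and at 51.7, 53.7, and 320.2 CPM after 8 h, and was also called. The antiviral enzyme Rsad2 (viperin) was at 14.5, 19.1, and 29.4 CPM and then at 169, 244, and 2211 CPM, and did not pass the test (edgeR adjusted p = 0.121). With all libraries, 35 members had an unadjusted p under 0.05 and DESeq2 called 22. The number called by edgeR was 0 without replicate 1, 2, or 3 at 0 h or replicate 3 after 8 h, 5 without replicate 1 after 4 h or replicate 1 after 8 h, 27 without replicate 2 after 8 h, and 33 without replicate 3 after 4 h. Without replicate 3 after 8 h the median log2 fold change of the list was 2.11. A covariate for Y-linked expression gave 34 calls. Replicate 3 after 4 h was high as well, with a mean log2 level 3.84 above that at 0 h, against 1.38 and 1.06 in the other 4 h libraries.

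Guanylate-binding proteins and immunity-related GTPases, which attack the vacuoles of intracellular microbes, had the same distribution over libraries. All 16 members were higher without overlap, 5 were called, and the median log2 fold change was 3.50. Gbp5 was at 9.7, 16.1, and 18.2 CPM at 0 h and at 131, 201, and 898 CPM after 8 h. Irgm1 was at 15.2, 20.2, and 17.6 CPM at 0 h and at 71.6, 96, and 334 CPM after 8 h. Both were called, with log2 fold changes of 4.80 and 3.24 (edgeR adjusted p = 0.087 and 0.0936), and DESeq2 called 13 of the list. The number called by edgeR was 0 without replicate 1, 2, or 3 at 0 h or replicate 3 after 8 h, 1 without replicate 1 after 8 h, 2 without replicate 1 after 4 h, 13 without replicate 2 after 8 h, and 16 without replicate 3 after 4 h, and 16 members had an unadjusted p under 0.05 with all libraries. The median without replicate 3 after 8 h was 2.26, and with the covariate for Y-linked expression 16 were called. Gbp2 was at 17.1 to 29.5 CPM at 0 h and at 139, 171, and 1201 CPM after 8 h, without a call (edgeR adjusted p = 0.119).

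Of 26 interferon receptors, nucleic acid sensors, and transcription factors, 10 were called higher and 0 lower, with a median log2 fold change of 1.64. Tmem173, which encodes the DNA-sensing adaptor STING, was at 11.4, 8.73, and 6.26 CPM at 0 h and at 46.2, 42.8, and 75.8 CPM after 8 h. The rise of 2.63 on the log2 scale (SE 0.36, adjusted p = 0.0121 with edgeR) stayed called without replicate 3 after 8 h. The kinase Jak2 was at 39, 35, and 31.5 CPM at 0 h and at 100.2, 77, and 197 CPM after 8 h. Irf8, a factor of the myeloid lineage, was at 7.58 to 14.1 CPM at 0 h and at 42.7, 28.8, and 52.7 CPM after 8 h. Both were called, with log2 fold changes of 1.82 and 1.97. The feedback inhibitor Socs1 was at 0.944 to 1.77 CPM at 0 h and at 13.8, 16.4, and 42.7 CPM after 8 h (log2 fold change 4.02, edgeR adjusted p = 0.0535). Jak1 and the receptor chain Ifngr2 had log2 fold changes of 0.41 and -0.09 and were not called. Ifnb1, the gene of interferon beta, was at 1.4, 0.137, and 0.0944 CPM at 0 h and at 1.87, 1.37, and 0.73 CPM after 8 h, without a call (edgeR adjusted p = 0.459). The transcription factor Irf7 lay above the 0 h range in all 8 h libraries, at 8.99 to 13.7 CPM and then 47.4, 51.2, and 360.2 CPM, and was not called. The number called was 1 without replicate 2 at 0 h, 2 without replicate 3 at 0 h, 3 without replicate 3 after 8 h, and 6 without replicate 1 at 0 h.

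MHC class I presentation genes had the same library pattern. Of 17 members, 6 were called higher, 15 were higher without overlap, and the median log2 fold change was 1.69. B2m, the light chain of class I molecules, was at 123, 141, and 124 CPM at 0 h and at 282, 298, and 670.4 CPM after 8 h. The heavy chain gene H2-D1 was at 206, 170.1, and 174 CPM at 0 h and at 461, 338, and 955 CPM after 8 h. Their log2 fold changes were 1.69 and 1.67 (edgeR adjusted p = 0.062 and 0.0595). Heavy chain genes share much sequence, so that the division of reads among H2-D1, H2-K1, and H2-Q4 is uncertain. DESeq2 called 11, 13 members had an unadjusted p under 0.05, and the number called by edgeR was 0 without replicate 1, 2, or 3 at 0 h, 1 without replicate 3 after 8 h, 2 without replicate 1 after 4 h, 3 without replicate 1 after 8 h, and 11 without replicate 2 after 8 h.

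**Figure D3:**
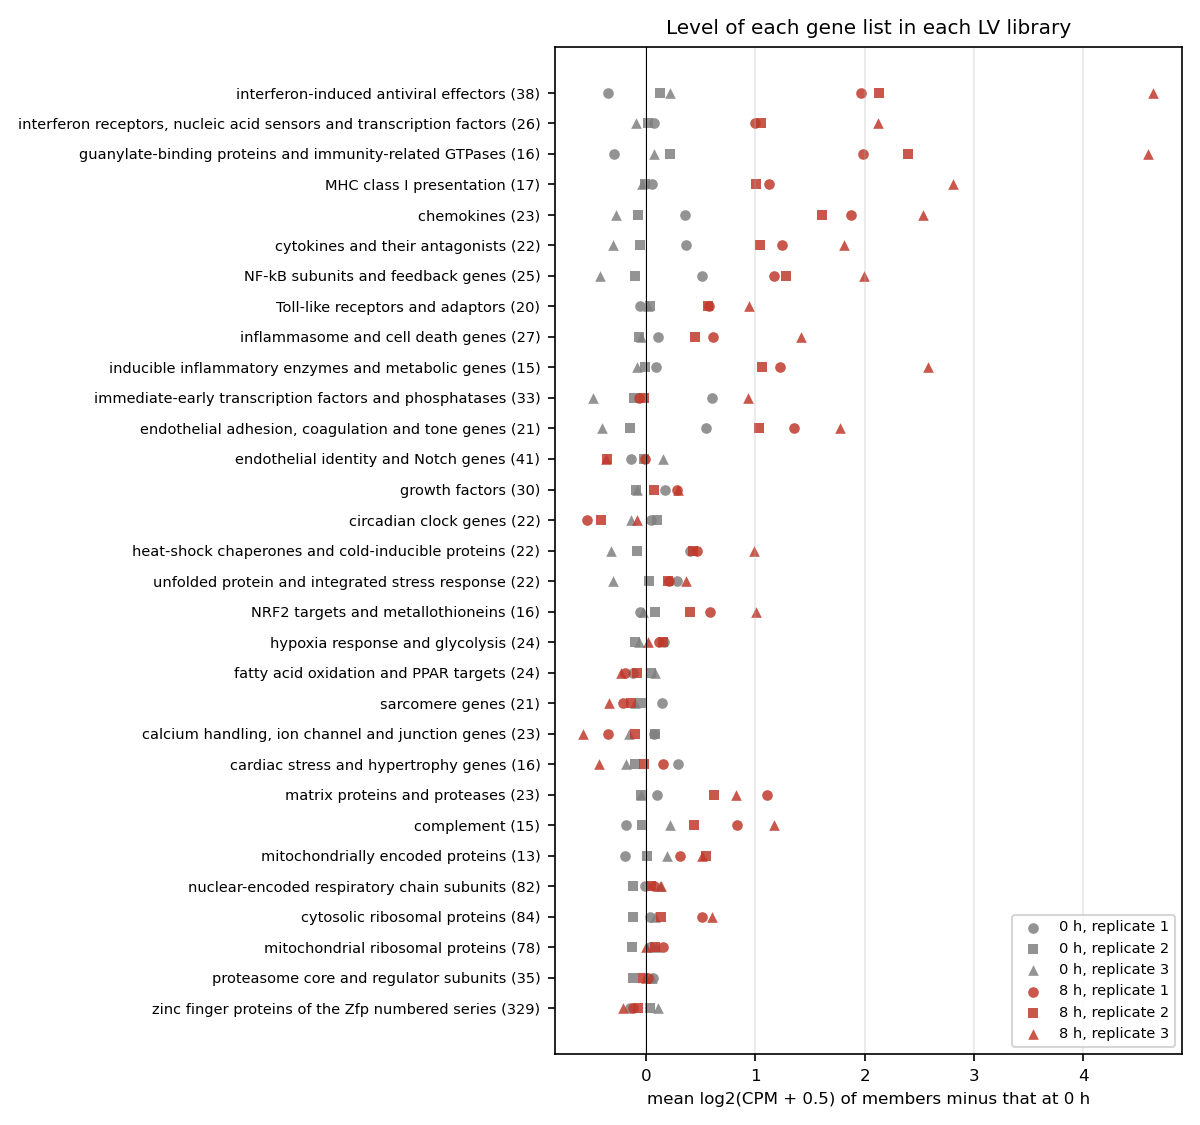
Mean log2(CPM + 0.5) of the tested members of each gene list in the 3 libraries at 0 h (grey) and after 8 h (red), relative to the mean of the 0 h libraries, with the number of members in parentheses and circle, square, and triangle for replicates 1, 2, and 3. Replicate 3 after 8 h lies at 4.64 for the antiviral effectors, against 1.96 and 2.13 for replicates 1 and 2.

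**Figure D4:**
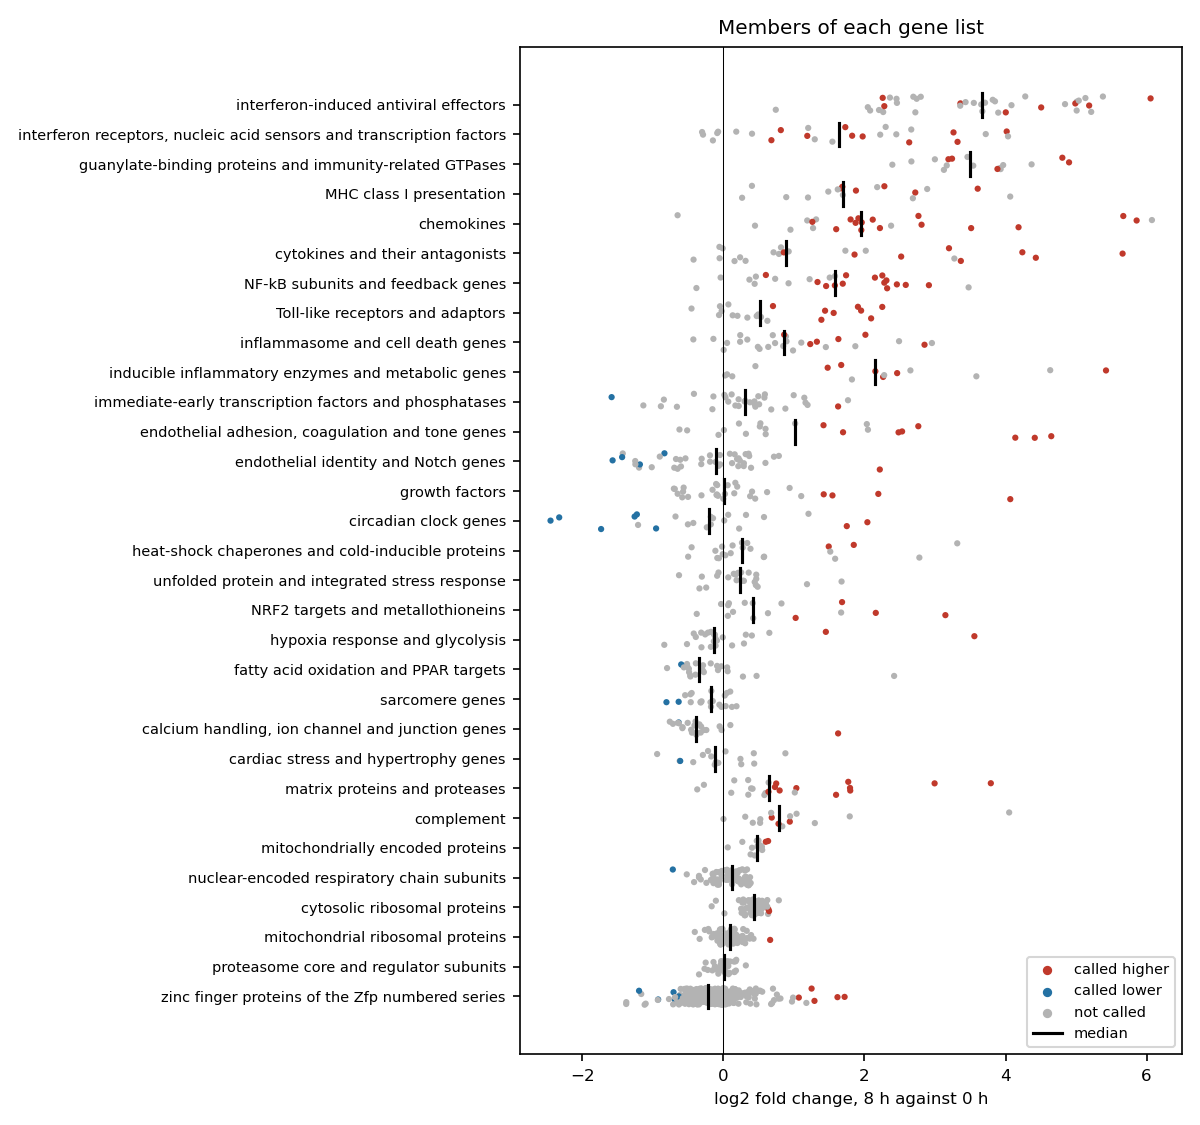
Log2 fold change of every tested member of each gene list, 8 h against 0 h, in red for members called higher, blue for members called lower, and grey for the others, with a bar at the median of the list. Chemokines hold 15 called members of 23, and the proteasome list has a median of 0.00.

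Chemokines guide leukocytes out of the blood. Of 25 members 23 were tested, and 15 were called higher and 0 lower, with a median log2 fold change of 1.96. Ccl9, a ligand of CCR1, was at 10.2, 6.28, and 7.58 CPM at 0 h and at 40.4, 29.9, and 41.9 CPM after 8 h (log2 fold change 2.22, standard error 0.22, edgeR adjusted p = 0.00256). Ccl12, a monocyte attractant, was at 1.42, 2.22, and 2.17 CPM at 0 h and at 6.58, 7.44, and 7.15 CPM after 8 h. Both were even across the 8 h libraries. The eosinophil attractant Ccl11 was at 1.19 to 3.84 CPM at 0 h and at 8.79, 7.71, and 13 CPM after 8 h, and the monocyte attractant Ccl8 at 0.271 to 0.629 CPM and then at 2.99, 1.75, and 3.89 CPM, and both were called. Cxcl9, a ligand of CXCR3, shared the high replicate 3 of the interferon-induced genes, with 4.88 to 7.23 CPM at 0 h and 122, 114, and 677 CPM after 8 h (log2 fold change 5.67, edgeR adjusted p = 0.0804). Cxcl10, another ligand of this receptor, was at 13.1, 11.1, and 12.3 CPM and then at 178, 281, and 1660 CPM and was called. The neutrophil attractant Cxcl1 was at 316, 106, and 53.2 CPM at 0 h and at 359, 334, and 488 CPM after 8 h, and was not called (edgeR adjusted p = 0.212). Its groups did not overlap, but replicate 1 at 0 h lay close to the 8 h range. The number of chemokines called was 3 without replicate 2 at 0 h, 6 without replicate 3 at 0 h, and 7 without replicate 3 after 8 h.

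Of 22 cytokines and their antagonists, 8 were called higher and 0 lower, and the higher count was 3 without replicate 2 or 3 at 0 h and 4 without replicate 1 or 3 after 8 h. Il6, a main inducer of the acute phase response, was at 18.4, 9.04, and 4.91 CPM at 0 h and at 196, 154, and 262 CPM after 8 h, and was called in every fit that left out a library. Il1rn, which encodes the IL-1 receptor antagonist, was at 2.02, 1.43, and 0.755 CPM at 0 h and at 26.6, 30.9, and 35.2 CPM after 8 h, or 4.43 in log2 units (SE 0.37, edgeR adjusted p = 0.00167). Il1b, whose product this antagonist opposes, was at 29.8, 12.7, and 17 CPM at 0 h and at 28, 22, and 24 CPM after 8 h, without a call (log2 fold change 0.31, SE 0.39, edgeR adjusted p = 0.649). The antagonist thus separated the groups and the cytokine overlapped between them. Csf3, the granulocyte colony-stimulating factor, was at 0.459, 0.239, and 0.377 CPM at 0 h and at 10.5, 11.8, and 34.5 CPM after 8 h (log2 fold change 5.66, edgeR adjusted p = 0.0105). The IL-6 family member Lif was at 1.3 to 4.28 CPM at 0 h and at 22.5, 10.9, and 31.8 CPM after 8 h, and was called. The anti-inflammatory cytokine Il10 was called from low levels, 0.0944 to 0.229 CPM at 0 h and 0.486 to 1.27 CPM after 8 h. Il10 passed the filter on low counts only through stored libraries, which largely fixed the direction of its change. Csf3, and Ccl8 among the chemokines, also needed stored libraries to pass this filter. Of 15 inducible inflammatory enzymes and metabolic genes tested, 6 were called higher, against 2 without replicate 2 at 0 h, 3 without replicate 1 or 3 at 0 h or replicate 3 after 8 h, and 10 without replicate 2 after 8 h. Ptgs2, the inducible cyclooxygenase, was at 36.7, 19.7, and 13.5 CPM at 0 h and at 84.4, 93, and 159 CPM after 8 h. Ch25h, which makes 25-hydroxycholesterol, was at 4.4 to 7.34 CPM at 0 h and at 30.6, 23.9, and 36.5 CPM after 8 h. Both were called, with log2 fold changes of 2.26 and 2.46, while the inducible nitric oxide synthase Nos2 was at 10.4 to 12 CPM and then at 9.45 to 14 CPM.

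Of 25 NF-kB subunits and feedback genes, 14 were called higher and 0 lower, with a median log2 fold change of 1.58. Nfkb1, the p105 and p50 subunit, was at 55, 43.4, and 41.4 CPM at 0 h and at 119, 106, and 227 CPM after 8 h (log2 fold change 1.69, edgeR adjusted p = 0.0249). Tnip3, an inhibitor of NF-kB signaling, was at 2.82, 2.25, and 2.23 CPM at 0 h and at 16.1, 25.3, and 13.8 CPM after 8 h, or 2.91 in log2 units (SE 0.31, edgeR adjusted p = 0.00326). Tnfaip3 (A20), another inhibitor, was at 245, 89.5, and 50.7 CPM at 0 h and at 268, 309, and 577 CPM after 8 h, and was not called (edgeR adjusted p = 0.154). Its replicate 1 at 0 h was the highest of that group. Without this library 18 of the 25 were called, and the number was 2 without replicate 2 at 0 h, 5 without replicate 3 at 0 h, and 7 without replicate 3 after 8 h.

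Among 20 Toll-like receptors and adaptors, 8 were called higher, against 1 without replicate 2 or 3 at 0 h, 2 without replicate 3 after 8 h, and 3 without replicate 1 at 0 h. Cd14, the co-receptor that passes lipopolysaccharide to TLR4, was at 16.4, 11, and 10.7 CPM at 0 h and at 52.9, 55.9, and 54.1 CPM after 8 h. The log2 fold change was 2.09 with an SE of 0.17 (edgeR adjusted p = 0.00146), with little spread in either group. Tlr4 itself was at 12.6 to 16.3 CPM and then at 13.4 to 15.8 CPM, without a call. The adaptor Myd88 was at 18.9, 16.9, and 14.8 CPM at 0 h and at 54.8, 52.9, and 133 CPM after 8 h, and was called (log2 fold change 2.25, edgeR adjusted p = 0.0552). Of 27 inflammasome and cell death genes, 6 were called higher by edgeR and 11 by DESeq2, and 14 had an unadjusted p under 0.05. The edgeR count was 0 without replicate 2 or 3 at 0 h, 3 without replicate 3 after 8 h, and 12 without replicate 2 after 8 h. Casp4, a sensor of intracellular lipopolysaccharide, was at 13.6, 10.7, and 9.12 CPM at 0 h and at 43.8, 49.1, and 149 CPM after 8 h (log2 fold change 2.85, edgeR adjusted p = 0.0481). The death receptor Fas was at 12.2 to 12.4 CPM and then at 32.4, 30.7, and 86.5 CPM (log2 fold change 2.01). Nlrp3, Casp1, Gsdmd, and Pycard, which form or act in the inflammasome, were not called. Nlrp3 was at 18.2, 8.97, and 5 CPM at 0 h and at 18.6, 19.9, and 19.9 CPM after 8 h, and Pycard, the adaptor ASC, at 3.24 to 6.38 CPM and then at 3.87 to 6.76 CPM.

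Of 21 endothelial adhesion, coagulation, and tone genes, 8 were called higher and 0 lower, 18 had a positive log2 fold change, and the higher count was 2 without replicate 2 at 0 h and 4 without replicate 3 at 0 h or replicate 3 after 8 h. The adhesion molecule Vcam1 was at 95.3, 63.8, and 39.2 CPM at 0 h and at 204, 291, and 653 CPM after 8 h. E-selectin (Sele), which slows rolling leukocytes, was at 90.8, 26.7, and 13.2 CPM and then at 238, 265, and 386 CPM. Both were called, with log2 fold changes of 2.53 and 2.76. Plat, the tissue plasminogen activator, was at 27.9, 18.3, and 19.8 CPM at 0 h and at 65.4, 43.4, and 68.1 CPM after 8 h (log2 fold change 1.42, edgeR adjusted p = 0.0152). Icam1, a ligand of leukocyte integrins, was at 676, 227, and 99.95 CPM at 0 h and at 829.6, 1213, and 2109 CPM after 8 h. Its groups did not overlap, but it was not called (log2 fold change 2.05, edgeR adjusted p = 0.143).

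Endothelial identity and Notch genes held 4 members called lower and 1 called higher of 41, with a median log2 fold change of -0.11. The counts were 0 higher and 2 lower without replicate 2 or 3 at 0 h, 1 higher and 2 lower without replicate 3 after 8 h, 2 higher and 6 lower without replicate 3 after 4 h, and 3 higher and 3 lower without replicate 2 after 8 h. Meox2, a homeobox factor of heart capillaries, was at 16, 23.8, and 21.4 CPM at 0 h and at 6.55, 6.65, and 7.39 CPM after 8 h. The transcription factor Sox4 was at 43.1, 57.1, and 35 CPM at 0 h and at 14.4, 16.3, and 19.3 CPM after 8 h. The log2 fold changes were -1.57 and -1.44 (edgeR adjusted p = 0.0153 and 0.0151), without overlap of the groups. The Notch target genes Hey1 and Hey2 were also called lower, with Hey1 at 8.05 to 9.3 CPM and then 2.67 to 5.11 CPM and Hey2 at 3.46 to 4.78 CPM and then 2.12 to 2.43 CPM. The Notch ligand Dll1 was called higher, from 8.32, 4.57, and 4.88 CPM to 22.1, 14.1, and 47.3 CPM (log2 fold change 2.22). Of 5 endothelial markers, edgeR called 0, and 1 higher without replicate 2 after 8 h, and DESeq2 called 1 higher. Their log2 fold changes ranged from -0.61 to 0.60, 4 were positive, and 2 had an unadjusted p under 0.05. Among them, Pecam1 was at 129 to 169 CPM and then 151 to 194 CPM. Cdh5 was at 166 to 222 CPM and then 203 to 232 CPM.

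Matrix proteins and proteases held 11 called genes of 23, all higher, against 5 without replicate 2 at 0 h and 7 without replicate 3 at 0 h or replicate 3 after 8 h. Col4a1, a chain of basement membrane collagen, was at 499, 427, and 436 CPM at 0 h and at 995, 736, and 1057 CPM after 8 h, or 1.03 in log2 units (SE 0.15, edgeR adjusted p = 0.0115). Timp1, an inhibitor of metalloproteases, was at 3.11, 2.29, and 1.79 CPM at 0 h and at 30.5, 17.5, and 52.7 CPM after 8 h. The membrane metalloprotease Mmp14 was at 15.3, 10.2, and 10.0 CPM at 0 h and at 35.2, 31.9, and 40.6 CPM after 8 h. Timp1 and Mmp14 were called, with log2 fold changes of 3.79 and 1.60. The aggrecanase Adamts4 was at 45.1, 12.9, and 6.64 CPM at 0 h and at 424, 226, and 491 CPM after 8 h (log2 fold change 4.14). The hyaluronan synthase Has1, named after its values were seen, was at 3.52, 2.59, and 1.29 CPM and then at 35.4, 31.4, and 45.3 CPM (log2 fold change 3.90, edgeR adjusted p = 0.00264). The fibrillar collagen gene Col1a1 was at 87.8 to 90.8 CPM at 0 h and at 186, 101, and 116 CPM after 8 h, without a call. Of 15 complement genes, 3 were called higher by edgeR and 7 by DESeq2, and 9 had an unadjusted p under 0.05. The edgeR count was 0 without replicate 1 or 2 at 0 h or replicate 3 after 8 h, 1 without replicate 1 or 2 after 4 h or replicate 1 after 8 h, and 6 without replicate 2 after 8 h. C3, the central component, was at 105, 88.7, and 189 CPM and then at 283, 212, and 238 CPM. Of 30 growth factors tested, 4 were called higher, against 2 higher and 0 lower without replicate 2 or 3 at 0 h and 5 higher and 2 lower without replicate 2 after 8 h. The activin chain Inhbb was at 1.95 to 2.84 CPM and then at 13.4, 6.38, and 11.4 CPM (log2 fold change 2.20), while Vegfa was at 720.0, 371, and 415 CPM and then at 327, 339.5, and 352 CPM without a call.

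The next 5 genes were picked after their values were seen. Lrrc25, a membrane protein of myeloid cells, was at 1.57 to 1.86 CPM at 0 h and at 8.6, 6.79, and 9.73 CPM after 8 h. The actin-bundling leukocyte plastin Lcp1 was at 20.9, 18.9, and 22.6 CPM at 0 h and at 55.7, 49.6, and 58.8 CPM after 8 h. Ptprc (CD45), present on leukocytes, was at 6.13, 6.93, and 7.3 CPM at 0 h and at 13.2, 13.3, and 14.1 CPM after 8 h. All 3 were called, with log2 fold changes of 2.29, 1.40, and 1.00. The transcription factor Cebpd was at 31.9, 30.5, and 22.1 CPM at 0 h and at 134, 128, and 149.6 CPM after 8 h, a log2 fold change of 2.28 (edgeR adjusted p = 0.00167). Sh3pxd2b, an adaptor of invasive cell protrusions, had the smallest p of all genes tested, with 8.01, 5.87, and 6.79 CPM at 0 h and 28.9, 28.9, and 32.5 CPM after 8 h (log2 fold change 2.12, edgeR adjusted p = 0.000594).

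Of 7 macrophage markers, edgeR called 0, 3 had an unadjusted p under 0.05, and DESeq2 called 1. Their summed level was 120, 141, and 178 CPM at 0 h and 226, 170, and 140 CPM after 8 h. Of the 7, 5 had a positive log2 fold change, with a median of 0.46. Without overlap, 3 were higher and 0 lower, against 15.7% and 13% of all genes. The receptor gene Csf1r overlapped, at 31.3 to 45.4 CPM and then 21.1 to 42.5 CPM. All 3 neutrophil markers tested, of 5, were called higher, and the summed level of these 3 stayed low, at 1.02 to 1.79 CPM at 0 h and at 16.4, 9.77, and 12.0 CPM after 8 h. Csf3r, the receptor of granulocyte colony-stimulating factor, was at 1, 1.5, and 1.73 CPM and then at 6.86, 8.09, and 9.15 CPM. The alarmin gene S100a8 was at 0, 0.0341, and 0 CPM and then at 3.12, 0.72, and 0.827 CPM, and S100a9 at 0.0209, 0, and 0.0629 CPM and then at 6.45, 0.96, and 2 CPM. S100a8 and S100a9 passed the filter on low counts only through stored libraries, which largely fixed the direction of their change. Retnlg was at 0 CPM in every 0 h library and Ly6g in 5 of the 6 libraries. Of the monocyte markers, Ly6c2 was called, at 0.772 to 2.74 CPM at 0 h and 5.11 to 5.98 CPM after 8 h, and the chemokine receptor Ccr2 was not. The T cell markers Cd3d and Cd4 stayed under 1 CPM, and no B cell or natural killer cell marker passed the filter on low counts. The hemoglobin transcript Hbb-bs was at 2.73, 3.21, and 2.36 CPM and then at 100.1, 6.58, and 16.7 CPM, without a call. Replicate 1 after 8 h, which held most of it, also held the most S100a8 and S100a9, and the part of residual blood in these values was not tested.

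**Figure D5:**
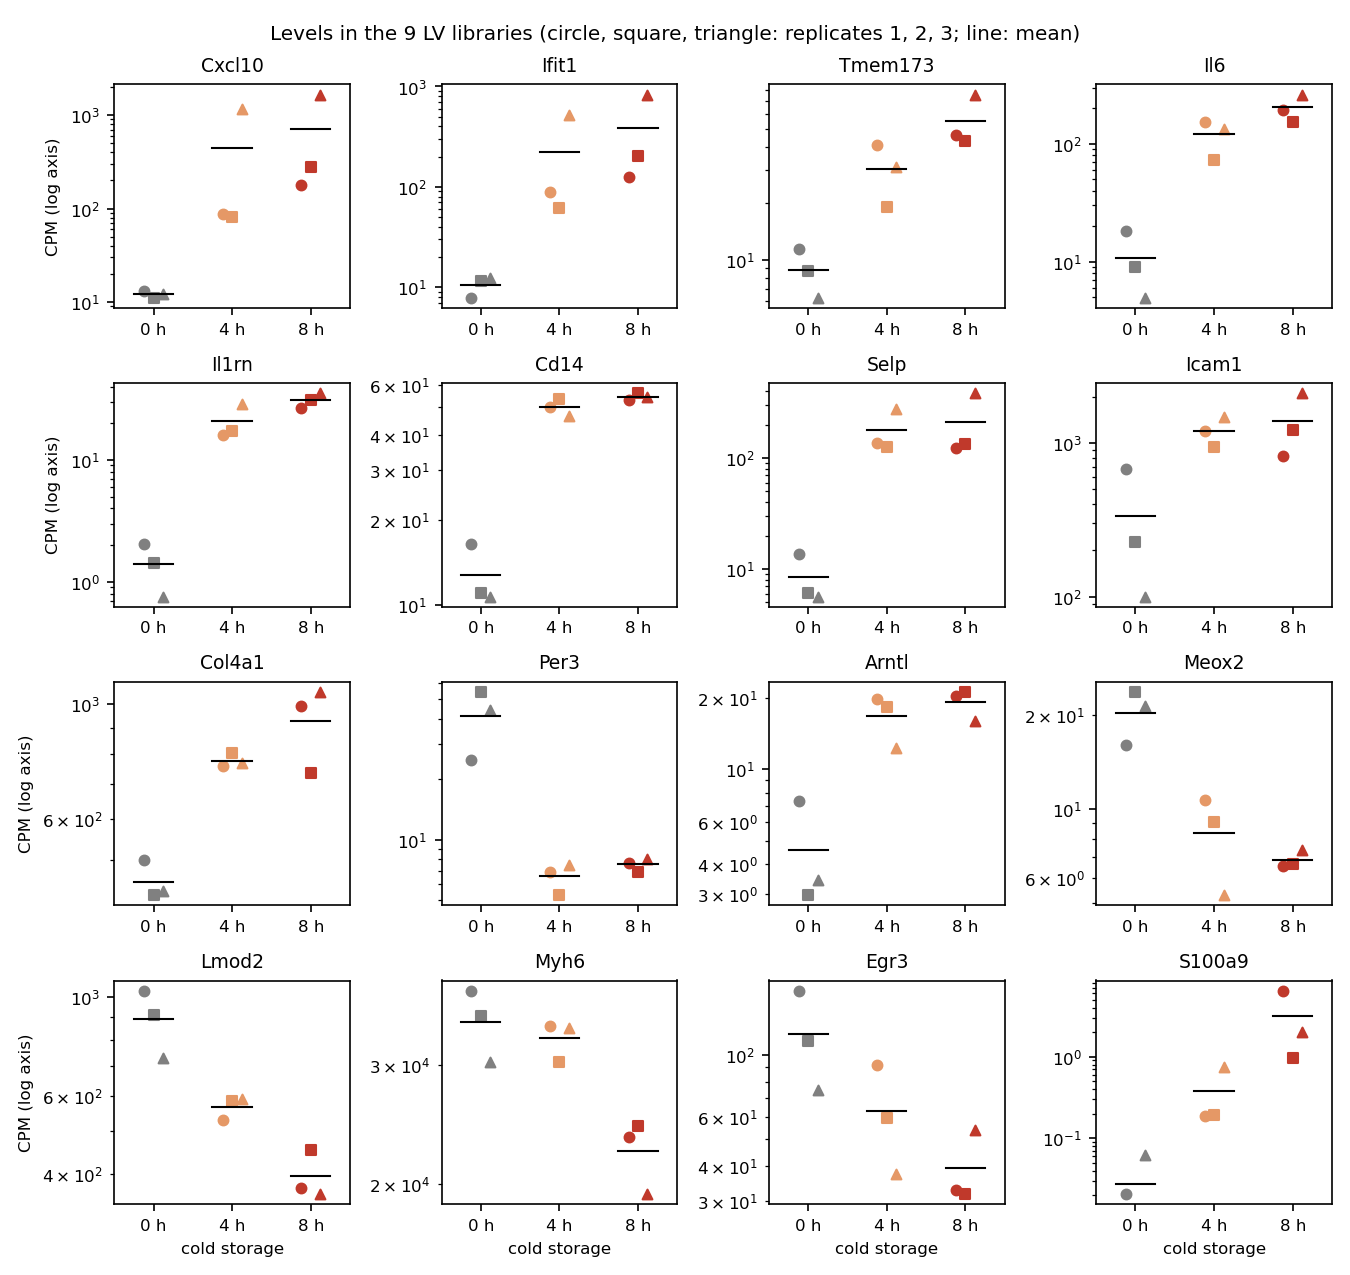
CPM on log axes of 16 genes in the 9 LV libraries at 0, 4, and 8 h, with circle, square, and triangle for replicates 1, 2, and 3 and a line at the mean of each group. Cd14, Il1rn, and Per3 separate 0 h from 8 h, Cxcl10 and Ifit1 are highest in replicate 3 after 8 h, and S100a9, at 0 CPM in replicate 2 at 0 h, has no point there.

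Clock genes changed in both directions. Of 22 members, 6 were called lower and 2 higher, with a median log2 fold change of -0.21. The counts were 1 higher and 3 lower without replicate 2 at 0 h. Dbp lost its call without replicate 1 or 2 at 0 h and Per2 without replicate 2 at 0 h. The PAR bZIP factors Dbp, Tef, and Hlf, which drive clock output through the D-box, all fell. Dbp was at 59, 120.4, and 93.1 CPM at 0 h and at 11.9, 11.1, and 31.5 CPM after 8 h. Tef was at 107, 185, and 157 CPM and then at 57.5, 64, and 70.3 CPM, and Hlf at 20.8, 31.5, and 24.6 CPM and then at 9.51, 12.6, and 10.0 CPM. Their log2 fold changes were -2.33, -1.23, and -1.26 (edgeR adjusted p = 0.0774, 0.0166, and 0.0094), and no group overlapped. The repressor Per3 fell from 25, 54.4, and 44.1 CPM to 7.67, 6.92, and 7.98 CPM and was called in every fit that left out a library. Per2 fell from 26.1, 41.8, and 29.8 CPM to 9.7, 7.34, and 12.4 CPM, and Nr1d2 from 129.6, 162, and 121 CPM to 52, 60.7, and 100.3 CPM. The activator Arntl rose from 7.4, 2.97, and 3.43 CPM to 20.3, 21.1, and 16 CPM (log2 fold change 2.04, edgeR adjusted p = 0.0224), and Npas2, a partner of its protein, from 3, 1.5, and 1.48 CPM to 5.46, 8.74, and 6.18 CPM (log2 fold change 1.75). Clock, the other partner, was at 29.2 to 35.8 CPM and then at 25.2 to 48 CPM. The repressors Per1 and Nr1d1 were not called, with Nr1d1 at 126, 114, and 105 CPM and then 53.6, 47.5, and 142 CPM. Replicate 3 after 8 h was the highest 8 h library in Dbp, Nr1d2, Per1, and Nr1d1. The hour at which each heart was collected is not given in the labels, and its part in these values was not tested.

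The heart muscle genes that were called were mostly lower. Over all genes tested, 1.24% were called lower and 4.81% higher. Lmod2, which lengthens actin filaments in the sarcomere, was at 1034, 913, and 729.9 CPM at 0 h and at 373, 454, and 361 CPM after 8 h, or -1.17 in log2 units (SE 0.15, edgeR adjusted p = 0.00824). Of 21 sarcomere genes in the list, 2 were called lower and 0 higher, with a median of -0.18, 6 had an unadjusted p under 0.05, and DESeq2 called 2 lower. The edgeR count was 0 without replicate 1 or 2 at 0 h or replicate 3 after 8 h, 1 without replicate 3 at 0 h, replicate 1, 2, or 3 after 4 h, or replicate 1 after 8 h, and 4 without replicate 2 after 8 h. Myom2, a protein of the M band, was at 1353, 1039, and 897 CPM and then at 436, 854, and 589 CPM, and it was called lower together with Myh6, the main adult myosin heavy chain. Of 23 genes of calcium handling, ion channels, and junctions, 2 had a positive log2 fold change, with a median of -0.40, with 1 called lower and 1 higher, against 1 higher and 0 lower without replicate 1 or 2 at 0 h or replicate 1 or 3 after 8 h and 1 higher and 5 lower without replicate 2 after 8 h. In this list 11 had an unadjusted p under 0.05, 6 were lower without overlap, and DESeq2 called 4 lower and 1 higher. Cacna1c, the pore of the L-type calcium channel, was at 290.2, 361, and 249 CPM at 0 h and at 174, 222, and 185 CPM after 8 h (log2 fold change -0.63, edgeR adjusted p = 0.0603). The potassium channel Kcna5 rose from 16.6, 13.5, and 16.5 CPM to 42.6, 54, and 47.4 CPM (log2 fold change 1.63, edgeR adjusted p = 0.00898). The calcium pump gene Atp2a2 had a log2 fold change of -0.58, just under the fold threshold, and phospholamban (Pln) one of -0.32. Tbx20, a cardiac transcription factor, was the 1 call of 16 cardiac stress and hypertrophy genes, at 72.4 to 76.6 CPM and then 41.3, 58.8, and 45.7 CPM. The call of Tbx20 was lost without any of the libraries at 0 h and without replicate 1 or 3 after 8 h. Of this list, 1 was called higher without replicate 1 at 0 h, and 2 lower without replicate 2 after 8 h.

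The call of Myh6 depended on transcript length. Its summed count was at 38590, 35355, and 30295 CPM at 0 h and at 23451, 24351, and 19341 CPM after 8 h, or -0.63 in log2 units (SE 0.13, edgeR adjusted p = 0.033). The short annotated transcript Myh6-207, of 542 bases, took 2.94%, 2.24%, and 5.15% of the gene's counts at 0 h and 11.3%, 5.97%, and 16.1% after 8 h. The mean effective length of the gene, weighted by the deposited TPM of its transcripts, was 3721, 4217, and 3151 bases at 0 h and 2088, 3011, and 1613 bases after 8 h. With length offsets in DESeq2 the log2 fold change of Myh6 was 0.15. Across all genes, the median log2 fold change was 0.15 in the fifth of genes with the shortest transcripts and -0.13 in the fifth with the longest, of 5222 bases or more. The genes called lower had a median length of 4283 bases, against 3054 for those called higher, and the part of length in these calls was not tested.

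The 13 mitochondrially encoded protein genes all had a positive log2 fold change, 9 of them without overlap, and 2 were called. This count was 0 to 4 with 1 library left out. The cytochrome oxidase subunit mt-Co3 was at 26428, 25627, and 32189 CPM and then at 37898, 40978, and 48914 CPM, a log2 fold change of 0.60. The 82 nuclear-encoded respiratory chain genes tested had a median of 0.12 with 1 called lower, the complex I subunit Ndufs1, at 744, 646, and 604 CPM and then 397, 521, and 295 CPM. Leaving out 1 library gave 0 or 1 respiratory chain genes higher and 0 to 2 lower. Of 24 fatty acid oxidation genes and PPAR targets, 5 had a positive log2 fold change, with a median of -0.34, and 1 was called lower. That gene was Hadha, a subunit of the trifunctional protein, at 1491, 1338, and 1212 CPM and then 816, 1111, and 742 CPM (log2 fold change -0.60, edgeR adjusted p = 0.0789). The lower count of the list was 5 without replicate 2 after 8 h and 0 in every other fit that left out 1 library. With all libraries, 8 of the list were lower without overlap, 11 had an unadjusted p under 0.05, and DESeq2 called 2 lower and 1 higher. Hypoxia and glycolysis genes had a median of -0.13 with 2 calls, both higher. The counts were 0 without replicate 2 or 3 at 0 h, 1 higher without replicate 3 after 8 h, and 3 higher and 2 lower without replicate 2 after 8 h. The glycolytic regulator Pfkfb3 rose from 44.4, 30.9, and 20.8 CPM to 219, 264, and 650.2 CPM (log2 fold change 3.56), and the vasodilator peptide gene Adm from 12.8, 5.63, and 7.36 CPM to 21, 21.2, and 28.8 CPM. Lactate dehydrogenase Ldha was at 425 to 516 CPM and then at 502 to 548 CPM.

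Stress genes moved in part. Of 16 NRF2 targets and metallothioneins, 4 were called higher, against 0 without replicate 2 at 0 h, 1 without replicate 3 at 0 h, and 2 without replicate 1 at 0 h or replicate 3 after 8 h. The metallothionein Mt2, which binds zinc and copper, was at 25.6, 51.4, and 43.9 CPM at 0 h and at 204, 232, and 634 CPM after 8 h (log2 fold change 3.15, edgeR adjusted p = 0.0447). Heme oxygenase Hmox1 was at 13.2 to 24.7 CPM and then at 61.1, 26.1, and 86.9 CPM (log2 fold change 1.68). Of 22 heat-shock and cold-inducible genes, the chaperones Hsph1 and Hsp90aa1 were called higher. With 1 library left out, 0 to 6 of the list were called higher and 0 or 1 lower. The inducible chaperone Hspa1a was at 316, 138, and 39.9 CPM at 0 h and at 587, 512, and 2289 CPM after 8 h, without a call (edgeR adjusted p = 0.125). The cold-inducible RNA-binding protein genes were not called, with Cirbp at 31.7 to 41.1 CPM and then 22.1 to 30.1 CPM and Rbm3 at 41.1 to 54.4 CPM and then 44.6 to 76 CPM. Of 22 unfolded protein and integrated stress response genes, edgeR called 0, 4 had an unadjusted p under 0.05, and DESeq2 called 2. Without replicate 1 at 0 h edgeR called 3 of them higher. Among 33 immediate-early genes, the phosphatase Dusp2 was called higher and the transcription factor Egr3 lower, and with all libraries 6 had an unadjusted p under 0.05. The fits that left out 1 library called 0 to 4 of this list higher and 0 to 2 lower. Egr3 was at 169, 112, and 74.7 CPM at 0 h and at 32.9, 31.9, and 54 CPM after 8 h (log2 fold change -1.58, edgeR adjusted p = 0.0754). Its call was lost without any 1 of the 0 h or 8 h libraries, with an adjusted p in edgeR of 0.127 without replicate 3 after 8 h, 0.16 without replicate 1 at 0 h, and 0.223 without replicate 2 at 0 h. Fos was at 266 to 535 CPM and then at 298 to 971 CPM.

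Cytosolic ribosomal protein genes had a positive log2 fold change in 82 of 84, with a median of 0.43. The groups did not overlap in 48, all higher, and 2 were called by edgeR, Rpl38 and Rpl41, with 67 at an unadjusted p under 0.05. The edgeR count was 0 without replicate 1, 2, or 3 at 0 h, replicate 1 after 4 h, or replicate 1 or 3 after 8 h, 1 without replicate 2 after 4 h, and 45 without replicate 2 after 8 h. The mitochondrial ribosomal proteins had a median of 0.10 with 1 called, and 0 without any 1 library at 0 h or replicate 1 or 3 after 8 h. The proteasome had a median of 0.00, with 0 called by edgeR or DESeq2 and 1 at an unadjusted p under 0.05. Zinc finger genes of the Zfp series had a median of -0.22 over 329 tested genes, 67 of them lower without overlap, with 5 called higher and 5 lower. These counts ranged from 0 and 0 without replicate 2 or 3 at 0 h to 9 and 14 without replicate 2 after 8 h. The pseudogenes Gm10359 and Gm12671 had identical values in every library, 107, 140.2, and 148 CPM and then 6.42, 7.54, and 0 CPM, so that their reads cannot be told apart.

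Levels after 8 h were also set against those after 4 h, in the same model of 9 LV libraries. Between 4 and 8 h edgeR called 0 of 14564 genes, and 1181 had an unadjusted p under 0.05. Of the 701 genes higher after 8 h, 631 lay farther from 0 h after 8 h than after 4 h, and of the 180 lower genes 162 did, a count that the choice of genes by the 8 h change partly fixes. Against 0 h, 2.15% of the genes were called higher and 0.371% lower after 4 h. Cd14 had a log2 fold change of 1.98 after 4 h and 2.09 after 8 h. Myh6 was at -0.08 after 4 h and -0.63 after 8 h. In the right ventricle (RV), 12.7% of 14622 genes were called higher and 5.29% lower after 8 h. The difference between ventricles in the 8 h change was called by edgeR for 0 of 15093 genes without pairing, and 625 had an unadjusted p under 0.05. With LV and RV libraries that share a number taken as 1 heart in a block, the LV change was called smaller or more negative than the RV change for 687 genes (4.55%) and larger or more positive for 149 (0.987%). Egr3 had a log2 fold change of 0.25 in RV, and its difference between ventricles was -2.0 (edgeR adjusted p = 0.00201 with the block). Isg15 and Myd88 also differed with the block, by -1.04 and -0.84 on the log2 scale (edgeR adjusted p = 0.00077 and 0.00182), the RV change being the larger.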

How the data were processed

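RNA sequencing of 18 libraries was read from per-transcript tables that the authors made with kallisto, per the labels. The deposited estimated counts and TPM are given for 111462 transcripts. Estimated counts were summed over the transcripts of a gene with GENCODE M21 on GRCm38 and rounded. Of the transcripts, 1259 matched no gene, and 0.3105% to 0.3647% of the LV counts were left out with them. TPM weighted the mean effective length of each gene, which gave the length offsets.

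The 9 LV libraries were fitted with edgeR 4.0.16 in R 4.3.3 (filterByExpr, TMM, robust glmQLFit, glmQLFTest), where the study used DESeq2, here an alternative (version 1.42.0). The 4 h libraries add to the estimate of the spread. Standard errors were derived from the F statistic. The ventricle difference was fitted over 18 libraries, without and with the heart as a block, since LV and RV libraries that share a number deviated together from their group means (Pearson correlation across genes of 0.518 to 0.827 in 9 pairs). The scripts were tested on simulated data. Alternatives covered normalization, filter, tool, libraries left out, covariates, and thresholds.

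The members and lists were chosen with earlier results of these data known. Named genes were the 15 largest changes each way among called protein-coding genes of at least 2 CPM, up to 4 called and 2 uncalled members of each list, the 10 most abundant called genes, the genes of proteins measured in the study, and cell type markers. Genes named outside this rule, after their values were seen, were Has1, Lrrc25, Lcp1, Ptprc, Cebpd, Sh3pxd2b, Arntl, Irf7, Ldha, Hspa1a, Fos, Hey1, Cirbp, Rbm3, Vcam1, Sele, Nr1d2, Per1, Clock, Nos2, Tlr4, Ifnb1, Gm10359, and Gm12671.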

Additional observations from a re-analysis of the deposited data

Results flagged for a closer look

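The change after 8 h differed between the ventricles when each heart was taken as a block, in a test of the difference itself with edgeR. In 687 genes the LV rose less or fell more than the RV, and in 149 it rose more or fell less, while 0 genes were called in either direction without the block. The deviations of LV and RV libraries that share a number from their group means had Pearson correlations across genes of 0.518 to 0.827 in the 9 pairs, and genes are not independent replicates. That a shared number means 1 heart was inferred from these correlations and is not given in the labels. Among the genes named here and called in LV, Egr3 had opposite signs, with a log2 fold change of -1.58 in LV and 0.25 in RV and a difference of -2.0 (edgeR adjusted p = 0.00201 with the block). The LV call of Egr3 was lost without any 1 of the 0 h or 8 h LV libraries, and the ventricle difference was not refitted with libraries left out.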

How the results depend on the processing

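The fit as reported called 701 genes higher and 180 lower after 8 h. DESeq2 called 1161 and 335, and 1117 and 362 with length offsets. Of the 701 and 180 calls, DESeq2 kept 694 and 179, and with length offsets 660 and 142. The 6 libraries alone gave 438 and 74, an adjusted p under 0.05 gave 372 and 58, a fold over 2 gave 510 and 37, and a covariate for Y-linked expression gave 1034 and 278. Leaving out 1 library gave 115 to 1292 higher and 12 to 504 lower genes. With the replicate number as a block the counts were 1157 and 356. Libraries of the same number at 0 h and 8 h did not deviate together (correlations of -0.006, 0.112, and -0.010). Between 0 h and 4 h the correlations were 0.262, 0.042, and 0.080, and those between 4 h and 8 h were not computed. Replicate 3 had the highest antiviral effector level after both 4 h and 8 h, and low Y-linked levels at both times. What the number stands for is not given in the labels. The replicate block called 1 gene lower between 4 and 8 h, and the heart block called 149 and 687 genes between ventricles, against 0 without it. Alternatives added after seeing the data left out all LV libraries numbered 1 (197 and 20), 2 (24 and 2), or 3 (621 and 174), or used a prior that was not robust (795 and 183). No gene was called in the opposite direction under any of these settings for the 8 h change. Of 6652 values of named genes under the alternatives, 5619 kept their side of the threshold, and 820 lost and 212 gained a call. A reversal was counted only for genes called in the reported fit or under the alternative. There was 1, Myh6 at 0.15 with length offsets. For genes called in neither, a change of direction was not counted. The causes were not tested. Whether depth limits the calls was not tested.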
